A study of Mus musculus with 6 samples.

Results

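The genes described here are 10 regulators of alternative splicing that act in heart muscle: Rbm20, Rbm24, Mbnl1, Mbnl2, Celf1, Celf2, Rbfox1, Rbfox2, Ptbp1 and Qk. They were taken by gene name from the deposited table, where each has 1 record, and make up 10 of its 24602 genes. The libraries were made from poly(A) RNA of left ventricles, taken 5 weeks after transverse aortic coarctation (TAC), a narrowing of the aorta that loads the ventricle with pressure, or in mice with a sham operation. All mice were wild type; strain, age and sex are not given in the labels. There were 3 TAC and 3 sham libraries, with between 64023153 and 69992502 estimated counts each. No label states how many animals each group had or whether ventricles were pooled, and a p-value here reflects the scatter among 6 libraries, which may be technical.

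Alternative splicing joins different sets of exons from one gene, and in the heart it sets, for example, the length and stiffness of titin. RBM20 represses exons of titin and of calcium-handling transcripts, and RBM24 promotes inclusion of muscle exons. MBNL and CELF proteins act against each other on many exons that switch between the fetal and the adult heart, and RBFOX proteins bind a short motif beside exons and activate or repress them by position. PTBP1 is a widely expressed repressor that falls as muscle matures, and Quaking, encoded by Qk, controls muscle exons and RNA stability. The table gives 1 value per gene and library, so the values below are amounts of regulator mRNA and not measures of exon use.

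Levels between genes were compared as FPKM, the fragment number scaled to the length of the merged exons and to the library's size. In TAC libraries the order by mean was Ptbp1 (12.8 ± 0.953), Rbm20 (11.7 ± 7.85), Rbm24 (10.4 ± 7.23), Rbfox2 (7.90 ± 3.33), Qk (4.49 ± 0.822), Celf1 (1.94 ± 0.647), Mbnl2 (1.75 ± 0.333), Mbnl1 (1.12 ± 0.0768), Rbfox1 (0.912 ± 0.664) and Celf2 (0.471 ± 0.113 FPKM; SD, n = 3). In sham libraries it was Ptbp1 (14.6 ± 1.26), Rbm20 (13.1 ± 0.888), Rbm24 (10.8 ± 1.27), Rbfox2 (10.2 ± 1.04), Qk (2.93 ± 0.201), Celf1 (1.62 ± 0.217), Mbnl2 (0.968 ± 0.323), Rbfox1 (0.959 ± 0.399), Mbnl1 (0.744 ± 0.0950) and Celf2 (0.346 ± 0.0280 FPKM; SD, n = 3). The first 4 overlapped from neighbour to neighbour in TAC, and in sham Rbm20 and Rbm24 did not overlap while Ptbp1 with Rbm20 and Rbm24 with Rbfox2 did. Qk lay apart from both of its neighbours in either group. The merged exons of Mbnl1 (18717 bases), Celf2 (25884 bases) and Qk (14242 bases) are long, which lowers their FPKM for a given number of fragments.

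Differences between groups were tested on the estimated counts with edgeR's quasi-likelihood test over the 8795 genes whose mean FPKM reached 1, and a gene was called at a Benjamini-Hochberg adjusted p under 0.05. The filter kept 7 of the 10 regulators. Mbnl1 (mean 0.933 FPKM), Rbfox1 (0.936) and Celf2 (0.408) lay under it although Mbnl1 had between 826 and 1606 estimated counts in every library and Celf2 between 572 and 1100, and they were tested in a second fit over the 15926 genes kept by edgeR's filterByExpr. In that wider fit 1 of the 10 was called, Qk, again higher, against 4.86% of its genes, 3.0% higher and 1.86% lower. Of the 7, Qk was higher in TAC, none was lower and 6 did not pass. At an unadjusted p under 0.05 there were 2 higher and 0 lower, a threshold at which no share of all genes was counted. DESeq2 called 2 higher and 0 lower at an adjusted p under 0.05, against 11.7% and 7.02% of all genes. Among all 8795 genes 6.99% were called, 4.71% higher and 2.29% lower in TAC (414 and 201 genes; 174 and 338 by limma on log2(FPKM + 1)), so 1 called regulator of 7 is too few to set against that share. The median log2 fold change of the 7 was 0.05, against -0.01 over all genes tested, and leaving out 1 library moved it to between 0.02 without sham replicate 2 and 0.33 without TAC replicate 2. Per library, values are given as CPM, the counts scaled to library size with TMM factors.

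TAC replicate 3 stood apart from the other TAC libraries. It held 369 CPM of summed activated fibroblast markers, against 112 and 126 CPM in TAC replicates 1 and 2 and between 26.3 and 33.2 CPM in sham libraries, and all 5 tested markers of that list were called higher in TAC. Summed ventricular cardiomyocyte markers were lowest in it, at 58116 CPM, with 72318 and 75199 CPM in the other TAC libraries and between 75788 and 84952 CPM in sham libraries. The markers of that list did not move together. Myh7 was at 7435 CPM in TAC replicate 3, with 1206 and 1357 CPM in the other TAC libraries and 993, 949 and 2144 CPM in sham. Myh6 was at 16521 CPM in TAC replicate 3, with 24006 and 24379 CPM in the other TAC libraries and between 26249.5 and 34055 CPM in sham. None of the 10 cardiomyocyte markers was at 0 and none was called. Mitochondrially encoded genes took 29.2%, 27.2% and 22.6% of the counts in TAC and 19.2%, 14.8% and 16.7% in sham, and the part of these differences in the results was not tested. Each regulator's fold change below is given with and without that library. In these bulk samples a change in the number of cells of a type and a change in RNA per cell cannot be told apart.

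**Figure D1:**
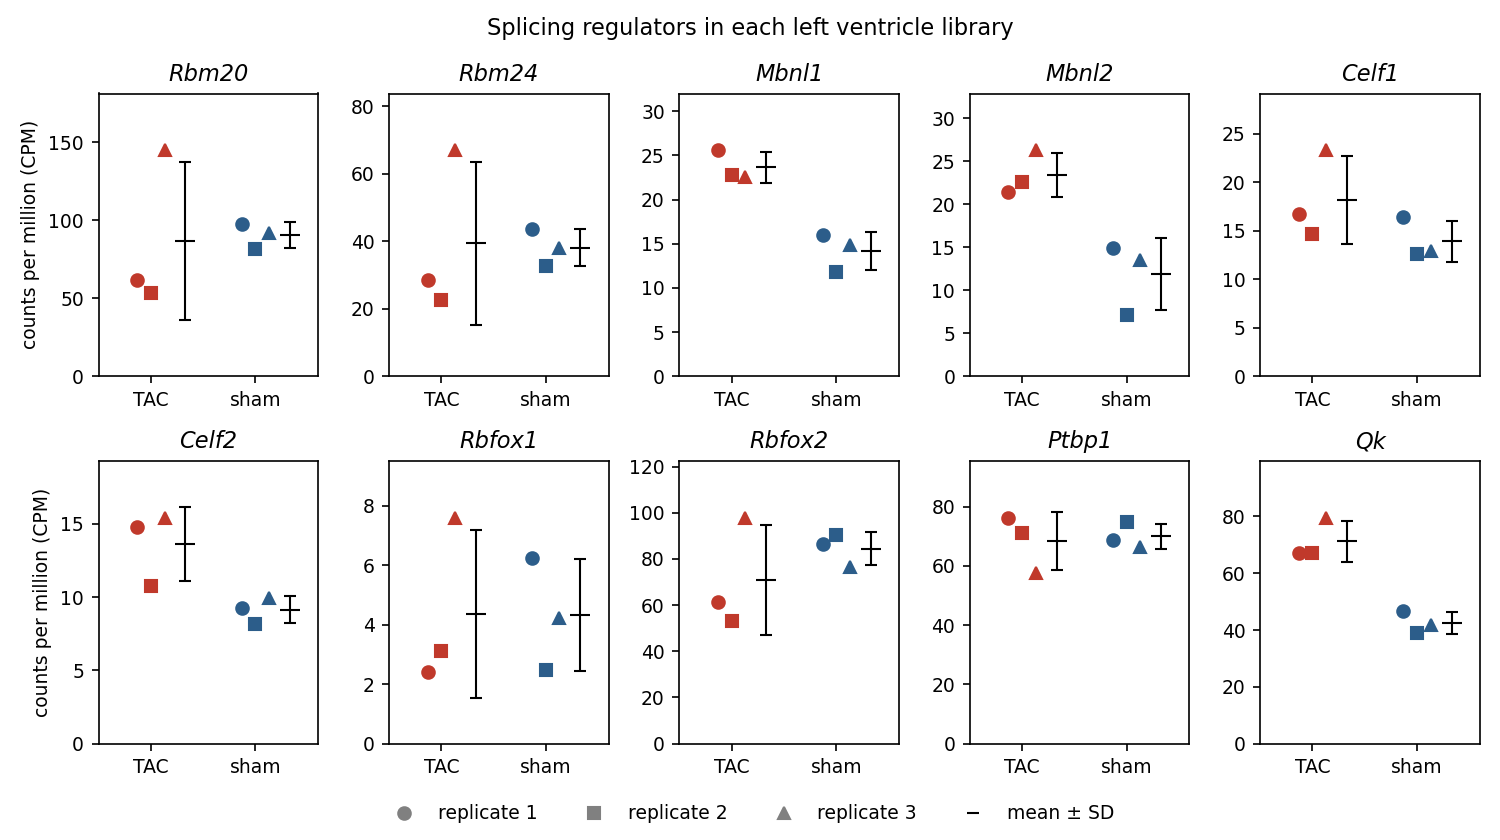
CPM of each of the 10 regulators in every library, TAC on the left and sham on the right of each panel, with symbols for the replicate and bars for the mean and SD (n = 3). For Rbm20, Rbm24 and Rbfox2, TAC replicate 3 lies above and TAC replicates 1 and 2 lie below all sham libraries, as in 5.59% of tested genes. All TAC values of Qk, Mbnl1, Mbnl2 and Celf2 lie above all sham values, as in 17.7% of the 8795 tested genes. That share was not counted over the 15926 genes of the wider fit, which alone holds Mbnl1 and Celf2.

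Rbm20 and Rbm24 split the TAC libraries. Rbm20 measured 61.8, 53.3 and 145 CPM in TAC replicates 1, 2 and 3, against 97.8, 81.3 and 91.8 CPM in sham replicates 1, 2 and 3. TAC replicates 1 and 2 thus held 68.4% and 59.0% of the sham mean and TAC replicate 3 held 161%. Over all 6 libraries the log2 fold change was -0.06 ± 0.34 (SE; edgeR adjusted p = 0.933). Rbm24, the muscle-restricted RNA-binding protein gene on chromosome 13 (46418434 to 46431095 in GRCm38), measured 28.5, 22.5 and 67.0 CPM in TAC, against 43.6, 32.8 and 38.0 CPM in sham. Its TAC libraries stood at 74.9%, 59.1% and 176% of the sham mean, with a log2 fold change of 0.05 ± 0.37 (SE; edgeR adjusted p = 0.950) that was negative by limma on FPKM (-0.22). The ratio of Rbm20 to Rbm24 within a library, as FPKM, stayed between 1.11 and 1.28 while the CPM of Rbm20 spanned 2.72-fold and that of Rbm24 2.98-fold from the lowest to the highest library.

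Rbfox2, the RBFOX paralogue with the higher level in every library, showed the same split with a smaller swing. It measured 61.5, 53.0 and 97.9 CPM in TAC, against 86.5, 90.2 and 76.6 CPM in sham (log2 fold change -0.25 ± 0.23, SE; edgeR adjusted p = 0.508). Its TAC libraries stood at 72.8%, 62.7% and 116% of the sham mean. Rbfox1, which is known best from brain and muscle, was scarce and scattered, at 2.41, 3.10 and 7.60 CPM in TAC, against 6.25, 2.48 and 4.23 CPM in sham. The groups overlapped, and in the fit that kept it the log2 fold change was -0.09 ± 0.43 (SE; edgeR adjusted p = 0.919), and -0.70 without TAC replicate 3 (adjusted p = 0.218). The FPKM of Rbfox2 was 13.9, 9.30 and 6.99 times that of Rbfox1 in TAC libraries and 7.51, 19.7 and 9.81 times in sham libraries, so the ranges of the ratio overlapped.

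Without TAC replicate 3, Rbm20 (log2 fold change -0.65 ± 0.13, edgeR adjusted p = 0.0149), Rbm24 (-0.58 ± 0.17, adjusted p = 0.0458) and Rbfox2 (-0.56 ± 0.13, adjusted p = 0.0205) were called lower in TAC. In that fit 10.1% of all tested genes were called lower and 9.24% higher, against 3 lower and 1 higher of the 7 regulators. Only 2 TAC libraries were left in it, and the spread was estimated over both groups. The wider fit without that library called 2 of the 10 higher (Mbnl1 and Qk) and 3 lower, against 5.49% and 6.33% of its genes. Without TAC replicate 1 the values were 0.13 for Rbm20 and 0.23 for Rbm24, and without TAC replicate 2 they were 0.20 and 0.33, none of them called. Of all tested genes, 5.59% had TAC replicate 3 above and both other TAC libraries below every sham library, as 3 of the 7 tested regulators did. A CPM in TAC replicate 3 at least 2-fold above both other TAC libraries was found in 2.5% of all tested genes and in Rbm20 and Rbm24 among the 7. TAC replicate 3 was the highest of the 6 libraries for 28.1% of tested genes and for 6 of the 7 regulators. These patterns were not planned and follow what was seen in the regulators. The shares beside them are thus a description, with no test.

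By the distance between library profiles, the root mean square difference of centred log2 CPM over 6 libraries, Rbm24 was the fourth nearest of 8794 genes to Rbm20 (0.08). Nearer still were Osbp, an oxysterol-binding protein gene (0.05), Fgf13, which encodes an intracellular partner of sodium channels (0.05), and Foxk1, a forkhead transcription factor gene (0.07). Rbfox2 ranked 207 (0.23), and Mbnl2 ranked 7906 (0.77). Osbp measured 53.7, 46.4 and 122 CPM in TAC, against 79.8, 67.8 and 73.0 CPM in sham, the same order of libraries within TAC as Rbm20. Such nearness over 6 libraries is a description, with no test.

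Qk was the regulator that passed the test. It measured 67.0, 67.2 and 79.6 CPM in TAC, against 46.5, 39.0 and 41.6 CPM in sham, with every TAC library above every sham library. Among tested genes 17.7% had all TAC libraries above all sham libraries. The mean in TAC was 1.68 times that in sham and the log2 fold change 0.75 ± 0.14 (SE; edgeR adjusted p = 0.0278). The record lies on the minus strand of chromosome 17 (10202601 to 10319854 in GRCm38) and shares no exonic base with another record. The call was kept without TAC replicate 3 (0.66 ± 0.12, adjusted p = 0.0118) and without sham replicate 1 (0.84, adjusted p = 0.0413). It was lost without any one of the other 4 libraries. The edgeR adjusted p was 0.0870 and 0.0567 without TAC replicates 1 and 2, and 0.127 and 0.0916 without sham replicates 2 and 3. Those fits called few of the 8795 genes, with 33, 99, 9 and 30 higher in the same order. The log2 fold change of Qk in them was 0.79, 0.79, 0.69 and 0.74. With trends over base composition and length removed the log2 fold change was 0.06 (0.825). The call was also lost with no filter (0.0588) and by limma on log2(FPKM + 1) (0.0753), whereas the DESeq2 adjusted p was 6.91e-05. The 3 genes nearest to Qk in profile were Znrd1as (0.03), Tmem62 (0.05) and Tek, an endothelial receptor gene on the marker list (0.05), which measured 24.8, 23.8 and 28.6 CPM in TAC, against 18.4, 14.0 and 15.2 CPM in sham. Summed endothelial markers were at 1350, 1357 and 836 CPM in TAC and between 868 and 1019 CPM in sham, with Tek the called one of 8 markers. The sum was lowest in TAC replicate 3, where Qk and Tek were highest, and lay above every sham library in TAC replicates 1 and 2. Whether the share of endothelial cells has a part in the Qk values was not tested.

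Mbnl2 did not pass although its groups did not overlap, with TAC above sham as in 17.7% of tested genes. It measured 21.4, 22.6 and 26.3 CPM in TAC, against 14.9, 7.09 and 13.6 CPM in sham, where sham replicate 2 was the low one (log2 fold change 0.98 ± 0.27, SE; edgeR adjusted p = 0.0638; DESeq2 adjusted p = 0.00587). Without sham replicate 2 the log2 fold change was 0.72 (edgeR adjusted p = 0.138), and without TAC replicate 3 it was 0.89 (0.0585). Mbnl1, whose loss contributes to myotonic dystrophy, measured 25.6, 22.8 and 22.5 CPM in TAC, against 16.0, 11.8 and 14.8 CPM in sham. All TAC values were above all sham values, at 1.66 times the sham mean, and in the wider fit, where 4.86% of the genes were called, the log2 fold change of 0.64 ± 0.17 (SE) had an edgeR adjusted p of 0.0604. Without TAC replicate 3 it was 0.71 and was called (adjusted p = 0.0287). The log2 ratio of Mbnl2 to Mbnl1, as FPKM, averaged 0.63 ± 0.24 in TAC and 0.32 ± 0.36 in sham (SD, n = 3), with overlapping ranges.

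Neither CELF gene, whose proteins often act against MBNL proteins, passed the test. Celf1 measured 16.7, 14.6 and 23.3 CPM in TAC, against 16.4, 12.5 and 12.9 CPM in sham, and the groups overlapped (log2 fold change 0.39 ± 0.21, SE; edgeR adjusted p = 0.274). Its value without TAC replicate 3 was 0.17. Celf2 measured 14.7, 10.8 and 15.4 CPM in TAC, against 9.29, 8.16 and 9.97 CPM in sham, which do not overlap (log2 fold change 0.48 ± 0.19 in the wider fit, SE; edgeR adjusted p = 0.144), and its value was 0.41 without TAC replicate 3. Celf2 had 0.287, 0.240 and 0.215 times the FPKM of Celf1 in TAC and 0.184, 0.211 and 0.252 times in sham. Celf2 is also expressed in lymphocytes and neurons. Summed markers of T and B lymphocytes were at 2.04 to 4.51 CPM in TAC and 1.94 to 4.16 CPM in sham, and those of neurons and Schwann cells at 8.58 to 12.7 and 9.35 to 15.7 CPM.

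Ptbp1, the repressor with the highest mean FPKM of the 10, varied least between libraries, by 1.32-fold from the lowest to the highest. It measured 76.3, 71.2 and 57.6 CPM in TAC, against 68.9, 74.7 and 66.2 CPM in sham (log2 fold change -0.03 ± 0.15, SE; edgeR adjusted p = 0.912; 0.08 without TAC replicate 3). TAC replicate 3, the highest library for 8 of the 10 genes, was the lowest for Ptbp1. Of its exonic bases 11.5% overlap records on the other strand, and no source used here states if reads were counted by strand. Its neuronal paralogue Ptbp2 had between 1.95 and 2.17 CPM in TAC and between 1.28 and 2.29 CPM in sham.

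The 10 genes differ in base composition, and across all tested genes the fold change moved with it. G and C made up 39.2% of the listed transcripts of Mbnl1, 41.4% of Qk, 43.4% of both Mbnl2 and Celf2 and 46.2% of Celf1. The share was 49.4% for Rbfox1, 51.2% for Rbfox2, 51.8% for Rbm24, 52.8% for Rbm20 and 55.2% for Ptbp1. The tested genes under 42% G and C had a median log2 fold change of 0.77 (332 genes, 32.2% called higher), those from 42% to 46% had 0.49 (955 genes), those from 46% to 50% had 0.16, those from 50% to 54% had -0.07 and those from 54% had -0.16 (3420 genes, 1.14% called higher). The value of Qk, 0.75, is thus near the median of genes as poor in G and C as itself. The coding parts of Qk and Rbm20 differ less than their whole transcripts. In the transcript with the longest coding sequence, G and C made up 49.2% of the coding bases and 37.0% of the 3′ tail of Qk, against 56.3% and 48.8% for Rbm20. A coding-exon window of 120 bases whose share is closest to that of the whole coding sequence is shown for Qk, the called regulator, and for Rbm20, with G and C in capitals. The sequences are from GENCODE M21 (GRCm38), 5′ to 3′ on the gene's strand. The Qk window is chr17:10216227-10216346 on the minus strand, in exon 6 of 8, with 49.2% G and C, and the Rbm20 window is chr19:53813624-53813743 on the plus strand, in exon 2 of 14, with 56.7%.
Qk: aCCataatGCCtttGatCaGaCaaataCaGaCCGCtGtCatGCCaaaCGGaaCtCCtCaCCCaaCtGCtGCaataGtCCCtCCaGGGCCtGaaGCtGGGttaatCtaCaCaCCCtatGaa
Rbm20: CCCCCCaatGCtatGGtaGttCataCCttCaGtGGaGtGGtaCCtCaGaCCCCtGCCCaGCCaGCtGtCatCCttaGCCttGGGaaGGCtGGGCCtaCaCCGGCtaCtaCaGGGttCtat

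**Figure D2:**
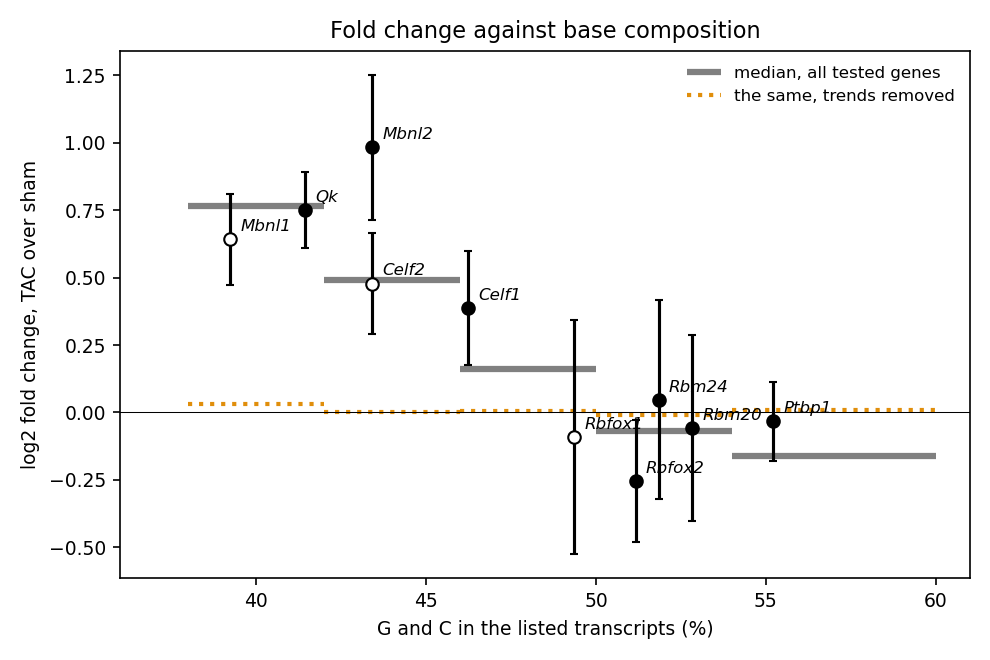
Log2 fold change, TAC over sham, with its SE against the percentage of G and C in each regulator's listed transcripts; filled points were tested among 8795 genes and open points (Mbnl1, Celf2, Rbfox1) among 15926. Grey bars are the medians of the 8795 genes in 5 ranges of G and C, and dotted bars are the same after removal of the trends. Qk (0.75) lies beside the median of its range (0.77). Mbnl2 (0.98) lies above the median of its range (0.49). Celf1 (0.39), with 46.2% G and C, is near the lower edge of its range. It lies above the median there (0.16) and below that of the adjoining range (0.49). No medians were taken over the 15926 genes.

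With each library's trends over G and C content and transcript length removed, the Qk value was 0.06 ± 0.13 (SE; edgeR adjusted p = 0.825) and no regulator of the 7 was called, against 2.79% of all tested genes (1.61% higher, 1.17% lower). At an unadjusted p under 0.05 there were 1 higher and 0 lower, with no share of all genes counted. No DESeq2 fit was run with the trends removed. After that removal Qk measured 54.9, 61.7 and 50.7 CPM in TAC, against 49.6, 59.7 and 51.4 CPM in sham, so that the groups overlapped. Mbnl2 had 0.50 ± 0.20 (edgeR adjusted p = 0.187), with all TAC libraries still above all sham libraries, and Celf1 0.07 ± 0.12. The share of all genes without overlap was not counted after the removal. In the wider fit with the trends removed, Mbnl1 had -0.07 ± 0.14 and Celf2 -0.09 ± 0.16, against 0.64 and 0.48 before. Because genes of like composition share the trend, its removal can also take away a difference that those genes have in common, and how much of it is technical was not tested. The split of the TAC libraries was not taken away. Rbm20 then measured 68.1, 62.2 and 125 CPM in TAC, against 88.8, 78.3 and 92.8 CPM in sham. Without TAC replicate 3 and with the trends removed, Rbm20 (log2 fold change -0.41 ± 0.11, edgeR adjusted p = 0.0474) and Rbfox2 (-0.47 ± 0.12, adjusted p = 0.0361) were called lower, and Rbm24 was not (-0.72 ± 0.21, adjusted p = 0.0609), where 6.79% of all tested genes were called lower and 6.14% higher.

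**Figure D3:**
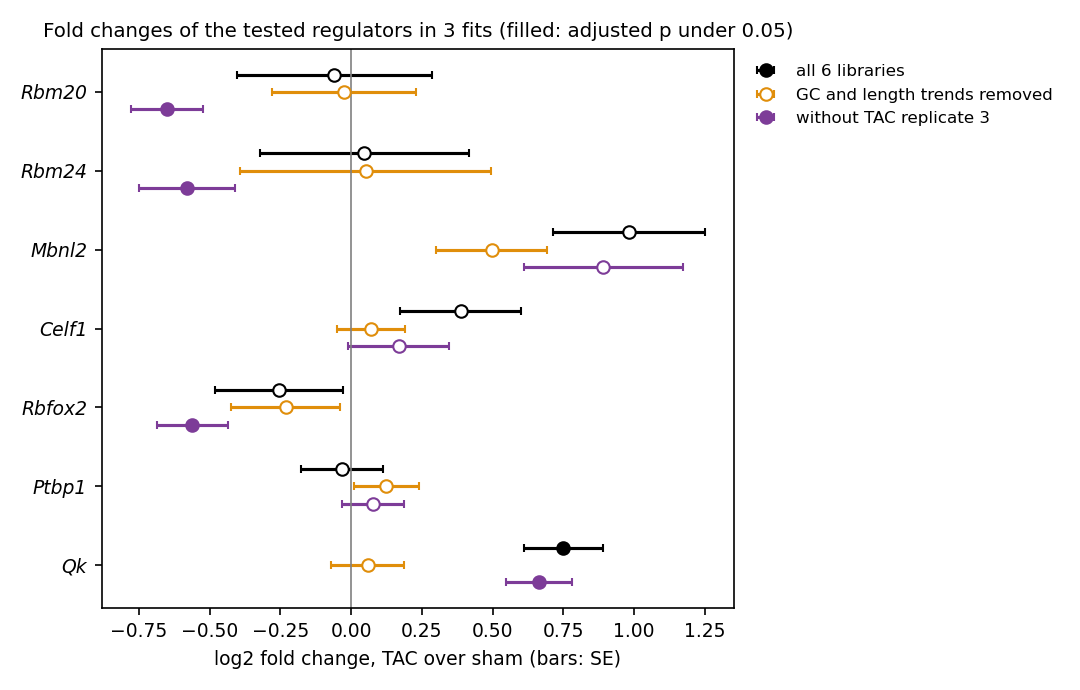
Log2 fold change, TAC over sham, of the 7 tested regulators with SE in 3 fits; filled points have an edgeR adjusted p under 0.05. Qk is at 0.75 with all libraries and at 0.06 with the trends removed, while Rbm20, Rbm24 and Rbfox2 are at -0.65, -0.58 and -0.56 without TAC replicate 3.

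Related regulators were counted in the same fit as a list of 30, of which 29 had a record and 16 were tested. Of these Fxr1 was higher, none was lower and 15 did not pass, against 4.71% higher and 2.29% lower among all tested genes. The median log2 fold change of the 16 was -0.08, and it lay between -0.14 without sham replicate 2 and 0.02 without sham replicate 1. At an unadjusted p under 0.05 there were 4 higher and 3 lower, with no share of all genes counted. DESeq2 called 3 higher and 2 lower, against 11.7% and 7.02% of all genes. Fxr1, which encodes a muscle-enriched relative of the fragile X protein, measured 27.7, 22.2 and 33.2 CPM in TAC, against 17.4, 8.32 and 11.5 CPM in sham (log2 fold change 1.16 ± 0.28, SE; edgeR adjusted p = 0.0465). Its transcripts hold 40.9% G and C, and with the trends removed its log2 fold change was 0.48 (adjusted p = 0.200). The call was also lost without TAC replicate 1 (edgeR adjusted p = 0.120), TAC replicate 2 (0.0594), sham replicate 2 (0.161) or sham replicate 3 (0.138). Those fits called few of all tested genes, as given for Qk. Rbm38, the relative of Rbm24 with the highest mean FPKM of the list (64.9), measured 165, 174.5 and 155 CPM in TAC, against 215, 224 and 246 CPM in sham. All TAC libraries were below all sham libraries, which held for 17.1% of tested genes, yet it did not pass (log2 fold change -0.47 ± 0.13, SE; edgeR adjusted p = 0.0622). It was called lower when TAC replicate 3 was left out (-0.43, edgeR adjusted p = 0.0359), by DESeq2 (adjusted p = 0.00756) and by limma on log2(FPKM + 1) (-0.61, adjusted p = 0.0413). The fit without TAC replicate 3 called 10.1% of all tested genes lower. The limma fit called 338 genes lower and 174 higher, and its median log2 fold change over all tested genes was -0.13. With the trends removed Rbm38 was not called, at -0.26 with all libraries and at -0.29 without TAC replicate 3 (edgeR adjusted p = 0.105). Fxr2, next in FPKM (37.7), had 0.09 ± 0.13. Of the other members of the regulators' own families, Mbnl3, Celf3, Celf4, Celf5, Celf6 and Rbfox3 were under 1 CPM in every library. Ptbp3, a paralogue of Ptbp1, measured 6.55, 4.18 and 5.22 CPM in TAC, against 2.70, 0.885 and 2.33 CPM in sham. All its TAC values were above all its sham values, and no share was counted over the genes under the mean FPKM filter. Celf4, Celf5, Rbfox3 and Nova1, also under that filter, had all TAC values above all sham values too. Ptbp3 did not pass in the wider fit (log2 fold change 1.34 ± 0.38, edgeR adjusted p = 0.0681). With the trends removed its log2 fold change was 0.68.

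The transcripts that these proteins are known to splice were counted by their gene totals, which say nothing of which exons they hold. All 24 on the list were tested, and 4 were higher, none was lower and 20 did not pass, against 4.71% higher and 2.29% lower among all tested genes. The median log2 fold change of the 24 was 0.38 with all libraries, 0.17 with the trends removed and 0.12 without TAC replicate 3. At an unadjusted p under 0.05 there were 7 higher and 2 lower, with no share of all genes counted. DESeq2 called 5 higher and 2 lower, against 11.7% and 7.02% of all genes. Enah, an actin regulator, measured 45.3, 62.7 and 78.0 CPM in TAC, against 12.3, 14.6 and 16.9 CPM in sham (log2 fold change 2.09 ± 0.22, SE; edgeR adjusted p = 0.00938). The endoplasmic reticulum protein gene Rtn4 (1.46 ± 0.24, adjusted p = 0.0243) and the Z-disc genes Pdlim5 (1.38 ± 0.22, adjusted p = 0.0229) and Nexn (1.42 ± 0.29, adjusted p = 0.0323) were the other 3. With the trends removed, Enah (1.80, adjusted p = 0.0122), Pdlim5 (1.02, adjusted p = 0.0225) and Rtn4 (0.98, adjusted p = 0.0367) kept their calls and Nexn did not (0.69, adjusted p = 0.112). None of the 4 calls was kept without sham replicate 2, where the edgeR adjusted p lay between 0.0652 for Enah and 0.118 for Rtn4. That fit called 9 genes higher and 3 lower among all 8795 tested. Without sham replicate 3 only Enah was called (edgeR adjusted p = 0.0282). Without TAC replicate 1 only Enah (0.0108) and Rtn4 (0.0477) were, and without TAC replicate 2 all but Nexn (0.0589). These fits called 30, 33 and 99 of all tested genes higher, in the same order.

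Titin, the best known target of RBM20, measured 933, 821 and 1142 CPM in TAC, against 955, 581 and 634 CPM in sham for Ttn (log2 fold change 0.42 ± 0.22, SE; edgeR adjusted p = 0.261). The thin filament genes Tpm1 (-0.26 ± 0.16) and Tnnt2 (0.35 ± 0.16), with the highest mean FPKM of the list, did not pass. The calcium channel gene Cacna1c had the split seen for Rbm20, with TAC replicate 3 above and the other TAC libraries below every sham library, as 5.59% of all tested genes did. It measured 72.3, 70.2 and 184 CPM in TAC, against 111.6, 91.1 and 93.7 CPM in sham. Without TAC replicate 3, 5 of the 24 were higher and 5 lower, against 9.24% and 10.1% of all tested genes. Cacna1c was among the lower (log2 fold change -0.47, edgeR adjusted p = 0.0328), but not with the trends removed as well (-0.23, adjusted p = 0.151). That last fit called 3 of the 24 higher and 2 lower, against 6.14% and 6.79% of all tested genes. Cacna1c and Ttn were picked out after their values were seen.

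**Figure D4:**
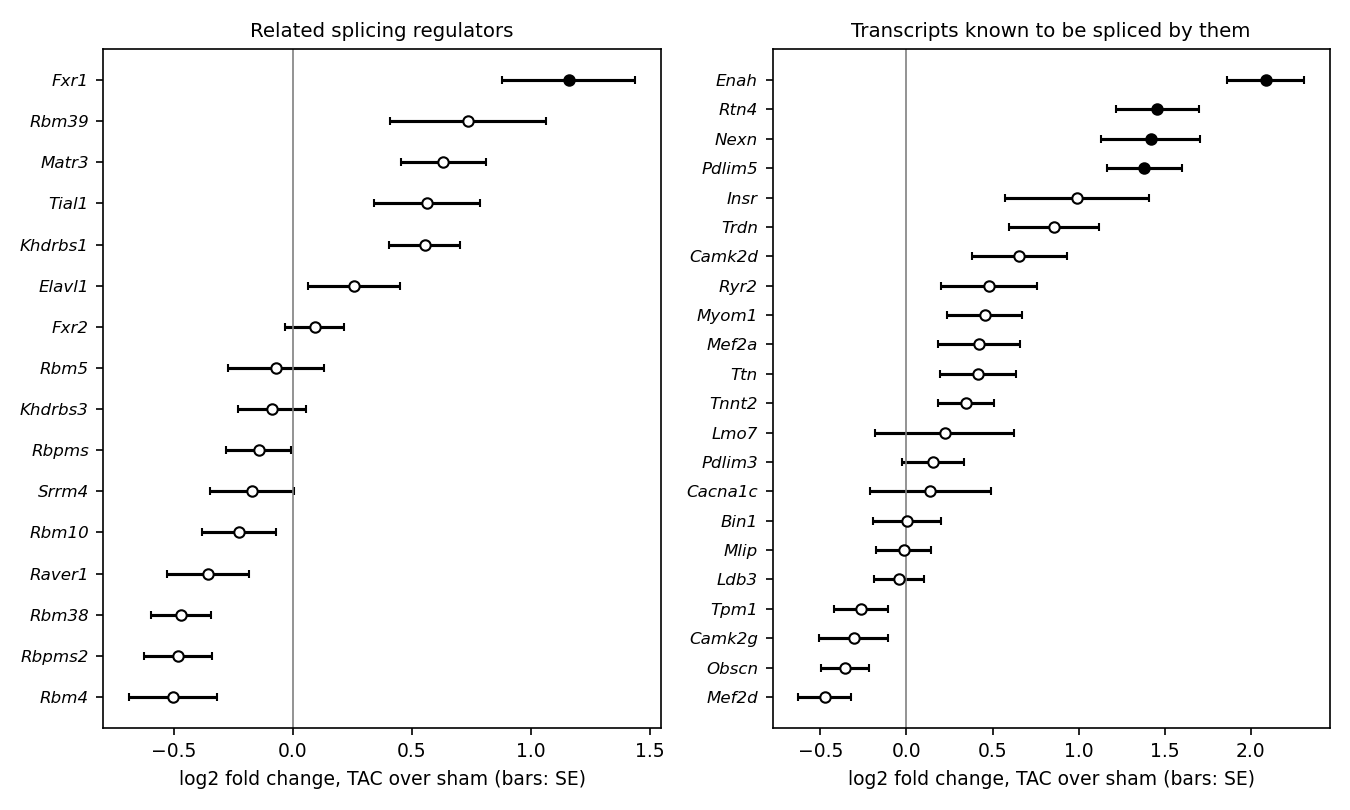
Log2 fold change, TAC over sham, with SE for the 16 tested related regulators and for 22 of the 24 transcripts known to be spliced by the proteins, in the fit over 8795 genes. Filled points have an edgeR adjusted p under 0.05: Fxr1 on the left, and Enah, Rtn4, Nexn and Pdlim5 on the right.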

How the data were processed

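Per the labels' protocols, oligo(dT)-selected RNA was fragmented and made into dUTP-marked libraries. The submitters' processing notes name cutadapt 1.9, HISAT2 2.0.4, StringTie 1.3.4d and GRCm38; the sources used here name no annotation, filter or strand setting. The authors deposited FPKM and estimated counts per gene and library. No source says how the counts were derived. For each member the deposited count over FPKM and library total came to 1.039 to 1.067 times its merged exonic length in GENCODE M21, so both columns hold the same measurement and FPKM is per merged exon. The whole-number estimated counts were fitted with edgeR 4.0.16 (R 4.3.3), TMM scaling and no covariate, on genes whose mean FPKM reached 1. Counting error alone understates the uncertainty of such estimates. Adjustment was over all tested genes, and SE is the fold change over the root of F, an approximation. Trends over G and C content and median transcript length came from lowess (span 0.3, 3 rounds) and entered as offsets. limma 3.58.1 and DESeq2 1.42.0 were alternatives. No label pairs the samples by replicate number, and no such pairing was seen in the values.

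The members, the lists of related regulators, spliced transcripts and cell type markers and the alternatives were chosen with earlier results of these data known. Named are the 10 members, every called gene and the 2 highest in FPKM of each list, and the 3 genes nearest in profile to Rbm20 and to Qk. Outside that rule, other members of the regulators' families, such as Ptbp2 and Ptbp3, are named, as are Nova1, Cacna1c and Ttn. The wider filter combined with trend removal or with leaving out a library, and trend removal combined with leaving out a library, were added after seeing the data. Of the spliced transcripts, 2 are counted but not reported singly here. Paralogue ratios had no test because in each pair one gene lay under the filter. Of the other marker lists, summed fibroblast markers ranged from 2592 to 3590 CPM in TAC and from 2621 to 2771 CPM in sham. Macrophage markers ranged from 452 to 582 and from 416 to 477, and smooth muscle from 258 to 438 and from 325 to 416. Pericyte markers ranged from 374 to 425 and from 376 to 413. Atrial markers ranged from 1384 to 2618 and from 458 to 1136, mostly Nppa (886 of the 1136 CPM in sham replicate 2). Myl7 measured 42.0, 1.82 and 8.09 CPM in TAC and 6.99, 57.6 and 41.7 CPM in sham. Skeletal muscle markers ranged from 3502 to 5333 and from 4856 to 5736, and epicardial from 1.95 to 5.93 and from 3.18 to 9.50.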

Additional observations from a re-analysis of the deposited data

How the results depend on the processing

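Of the regulators, DESeq2 called 2 higher, whereas 0 were called without a filter, by limma at any of 3 pseudocounts, with the replicate block or with the composition and length trends removed, alone, with the block or with the wider filter. Leaving out 1 library gave 0 to 1 higher and 0 to 3 lower, with the wider filter 0 to 2 and 0 to 3, and with trends removed 0 and 0 to 2. Of related regulators, upper-quartile scaling called 2 higher and DESeq2 3 higher and 2 lower; limma called 0 higher and 1 lower, and 0 were higher without a filter or with trends removed, with and without the block (leaving out 1 library: 0 to 2 higher, 0 to 2 lower). Of spliced transcripts, DESeq2 called 2 lower, and trends removed with the block left 1 higher (leaving out 1 library: 0 to 5 higher, 0 to 5 lower).

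Over all genes DESeq2 called 1031 higher and 617 lower, no filter 163 and 122, and limma 174 and 338, 170 and 336, or 174 and 339 with 1, 0.1 or 0.5 added to FPKM. With the replicate block the counts were 141 and 42, with trends removed 142 and 103, and with both 47 and 14. Leaving out 1 library gave 9 to 813 higher and 3 to 892 lower. The limma fits moved the median of all genes to -0.13, -0.16 and -0.15. Deviations of same-numbered TAC and sham libraries from their group means correlated at -0.10, 0.14 and -0.06. Those of differently numbered libraries correlated at -0.23 to 0.25. No pairing by number was thus seen, though 3 libraries per group cannot exclude it. The labels state no pairing, and the fit with the block is a different test rather than a stricter version of the same one.

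Rbm24 turned to -0.068 without a filter, to -0.071 with the wider one, to -0.22, -0.25 and -0.24 by limma, to -0.12 with the block and to -0.17 with block and trends removed. With the wider filter and trends removed, Mbnl1 turned to -0.067 and Celf2 to -0.092. Ptbp1 turned to 0.031 with upper-quartile scaling and to 0.12 with trends removed, with and without the block. Fxr2 turned to -0.011 without a filter, to -0.0071 with the wider one and to -0.052, -0.053 and -0.052 by limma. Over fits without 1 library, Rbm20 ranged from -0.65 to 0.20, Rbm24 from -0.58 to 0.33, Ptbp1 from -0.12 to 0.077 and Qk from 0.66 to 0.84. With the wider filter Rbfox1 turned to 0.19 and 0.087 without TAC replicates 1 and 2 and to 0.25 without sham replicate 1. With trends removed and TAC replicate 1, TAC replicate 2 or sham replicate 3 left out, Rbm20 turned to 0.12, 0.16 and 0.027. Rbm24 turned to -0.72, -0.071 and -0.0065 with trends removed and without TAC replicate 3, sham replicate 2 or sham replicate 3, and Qk to -0.017 without TAC replicate 2. Ptbp1 with trends removed was at 0.064, 0.14 and 0.17 without TAC replicates 1, 2 and 3 and at 0.15, 0.15 and 0.076 without sham replicates 1, 2 and 3. The log2 paralogue ratios, TAC minus sham, had no trends removed. With all libraries they were 0.20 for Celf2 over Celf1 and 0.30 for Mbnl2 over Mbnl1. Those of Ptbp2 over Ptbp1 and Rbfox2 over Rbfox1 were 0.33 and -0.23. With 1 library left out, they ranged from 0.085 to 0.32 for Celf2 over Celf1 and 0.097 to 0.43 for Mbnl2 over Mbnl1. The ranges were 0.070 to 0.56 for Ptbp2 over Ptbp1 and -0.53 to 0.17 for Rbfox2 over Rbfox1. With 1 added to FPKM, Celf2 over Celf1 turned to -0.024. The causes were not tested.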
